A study of Homo sapiens with 39 samples.

Results

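The genes described here are 52 genes of DNA replication and of the G1 to S phase transition, the point at which a dividing cell commits to copying its genome. They were taken as a list of symbols, and each of the 52 matched 1 of the 57773 Ensembl identifiers in the deposited count table. The rule is a list of names and holds no threshold on a measured value, but the list was drawn up with earlier results of these data known. Of the 52, 52 passed the filter on low counts that left 14460 genes for testing. The RNA came from JJN3, an established multiple myeloma line, that is, a line of malignant plasma cells, grown in RPMI medium with 10% FCS. The 13 groups hold 3 libraries each: cells at the start (T0), and cells after 1, 3, 6 or 24 h in DMSO (the control), in GSK-J4 (an inhibitor of the KDM6 histone H3K27 demethylases) or in ZnSO4 (a source of zinc). The labels give no dose and do not say that the libraries of a group came from separate cultures, so that a p-value speaks for the spread among these 39 libraries, which may be technical. The title of the series places both agents in a study of metal and stress responses to GSK-J4.

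Replication is prepared in G1, when the origin recognition complex, CDC6 and CDT1 load the ring-shaped MCM helicase onto DNA. At the entry to S phase cyclin E with its kinase partner, CDC45 and the GINS complex turn these rings into moving helicases. PCNA, the sliding clamp placed by replication factor C, then holds the polymerases to DNA while other enzymes supply nucleotides, join Okazaki fragments and provide histones to the new strands. Transcription of many of these genes depends on E2F factors, which are held back by the RB family until cyclin-dependent kinases release them. In myeloma, overexpressed D-type cyclins act on that same step.

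The sequences that E2F factors read are short, and promoters are shown here for the genes called with GSK-J4 at both 6 and 24 h. There were 11 such genes, of which 10 had a RefSeq promoter window (250 bases before to 50 bases after the annotated start, GRCh38.p14, another build than the hg19 alignment). The windows were searched on both strands for TTTGGCGC, TTTCGCGC, TTTCCCGC and TTTGCCGC, letters of the E2F site. Of the 10, 6 held at least 1 match, and for these the 100 bases before the start are printed 5′ to 3′ on the gene's strand, with the matches in capitals. They lie at chr12:109098072-109098171 (+ strand), chr15:48332097-48332196 (+ strand), chr16:85688955-85689054 (- strand), chr18:657553-657652 (+ strand), chr20:5126623-5126722 (- strand) and chr20:33686386-33686485 (- strand), for UNG (ENSG00000076248), DUT (ENSG00000128951), GINS2 (ENSG00000131153), TYMS (ENSG00000176890), PCNA (ENSG00000132646) and E2F1 (ENSG00000101412) in that order.
UNG: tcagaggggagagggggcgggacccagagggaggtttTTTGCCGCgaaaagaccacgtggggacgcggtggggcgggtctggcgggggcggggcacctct
DUT: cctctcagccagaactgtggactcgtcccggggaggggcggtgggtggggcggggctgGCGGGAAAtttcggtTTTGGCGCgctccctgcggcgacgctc
GINS2: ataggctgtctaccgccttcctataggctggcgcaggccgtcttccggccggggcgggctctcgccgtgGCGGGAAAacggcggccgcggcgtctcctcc
TYMS: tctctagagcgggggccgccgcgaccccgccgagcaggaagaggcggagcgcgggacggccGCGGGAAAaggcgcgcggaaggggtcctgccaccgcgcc
PCNA: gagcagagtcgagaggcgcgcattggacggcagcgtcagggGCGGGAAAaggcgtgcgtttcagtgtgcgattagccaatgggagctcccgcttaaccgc
E2F1: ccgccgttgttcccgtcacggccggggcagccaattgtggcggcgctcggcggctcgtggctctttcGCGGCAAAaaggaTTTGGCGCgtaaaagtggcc
The matches began at positions from -63 to -20, counted back from the start, in these 6 stretches, and DUT and E2F1 held 2 each. With GSK-J4, E2F1 was higher at both times and UNG, DUT, GINS2, TYMS and PCNA were lower. Of these 6 genes only DUT kept its call at 6 h under every alternative analysis listed at the end.

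Over all the genes with a window, the E2F letters were found in 22 of 44 of the replication genes (50%) and in 1090 of 27305 RefSeq genes (3.99%). Matches on opposite strands can overlap, as they do in MCM6, and a gene was counted once. No window was at hand for MCM4, MCM5, GINS4, POLD3, RPA2, RPA3, CCNE2 and E2F8. The CCAAT letters, searched on both strands, were in 59.1% of the replication genes and 39.72% of all RefSeq genes, and the letters TTTGAA or TTTAAA of the cell cycle homology region in 22.7% against 27.85%. Among genes with a window, the E2F letters were in 11 of the 21 that fell with GSK-J4 at 24 h, in 2 of the 5 that rose and in 9 of the 18 that were not called. A match is a description of the letters in the window and not a binding site.

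Levels are in CPM, read counts divided by the library total in megareads, after TMM scaling, which sets the bulk of genes level between libraries. Differences are log2 fold changes (log2FC) with their standard error, and a gene is called at an adjusted p under 0.05 in edgeR's quasi-likelihood test. Shares of all genes, given as background, are for such calls. Where genes are counted at an unadjusted p under 0.05, no share of all genes at that threshold is given. Library totals ran from 4347745 to 10695671 counts (median 6010529). The plasma cell genes SDC1, TNFRSF17, SLAMF7, CD38, IRF4, PRDM1, XBP1, MZB1 and MAF had counts in every library, from 20.6 CPM in CD38 to 1375 CPM in IRF4. Of T and NK cell genes, CD3D and NKG7 had no count in 38 and 33 of the 39 libraries and CD3E, CD3G and CD2 in 5, 4 and 3, with at most 1.42 CPM. Of myeloid genes, LYZ, CSF1R and ITGAM had no count in 33, 17 and 2 libraries and CD14 had counts in each, with at most 1.55 CPM. The B cell genes MS4A1 and PAX5 had counts in every library (1.25 to 6.01 and 0.17 to 3.15 CPM), the stromal genes COL1A1 and COL1A2 reached 32.7 and 33.2 CPM, and EPCAM, an epithelial gene, was at 30.8 to 62.6 CPM. The part of such genes in the results was not tested. Mitochondrial transcripts took 2.921 to 3.902% of counts before 24 h and 4.376 to 5.542% at 24 h, and their part in the 24 h results was not tested. The replicates that differed most were T0 libraries. In bulk RNA, fewer cells in S phase and less of these RNAs per cell cannot be told apart.

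With GSK-J4, 24 of the 52 genes were below DMSO at 24 h, among them 5 of the 6 MCM helicase subunits and 6 of 6 genes of nucleotide supply and uracil removal. Against these, 8 genes rose, among them GINS1, BRCA1, CCNE2, E2F1 and E2F8. Rises and falls with a compound are against DMSO at the same time, and the compounds were not tested against T0. Some genes below DMSO at 24 h, such as PCNA, MCM7 and SLBP, stood above T0 in each GSK-J4 library. Others, such as FEN1 and UNG, stood below T0, as did GINS1 and BRCA1, which were above DMSO. At 1 h none was called (background 0.0346% of genes called higher and 0.0692% lower), with 1 gene higher and none lower at an unadjusted p under 0.05 and none called by DESeq2. At 3 h FEN1 was lower and no gene higher (background 0.927% lower and 1.45% higher); 11 genes were lower at an unadjusted p under 0.05, and DESeq2 also called 1. At 6 h 5 genes were higher and 9 lower (background 9.83% and 10.5%). At 24 h 8 were higher and 24 lower, against 15.2% and 16.8% of the genes tested. The share that rose at 24 h (15.4%) was near that of all genes, and the share that fell (46.2%) was above it. The median log2FC over the 52 genes at 24 h was -0.14, against 0.022 over the genes tested.

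With ZnSO4 fewer genes were called, and more of them rose than fell. No gene was called at 1 h (background 0.498% higher and 0.18% lower), with 2 higher and 1 lower at an unadjusted p under 0.05 and none by DESeq2. At 3 h 6 genes rose and 1 fell (background 6.59% and 4.16%), at 6 h again 6 rose and 1 fell (background 4.81% and 4.51%), and at 24 h 5 rose and none fell (background 3.98% and 5.58%). At 24 h an unadjusted p under 0.05 was met by 14 genes on the higher side and 1 on the lower, and DESeq2 called 4 higher and none lower. The split at the unadjusted p has no background here, since the share of all genes at that threshold was not taken. Leaving out any 1 of the 6 libraries left 0 to 3 of the 52 genes called at 24 h. The medians over the 52 genes were 0.04, 0.07 and 0.05 at 3, 6 and 24 h. Both compounds are compared with the same DMSO libraries. The genes called in none of the comparisons of a compound with DMSO were CDC6, GINS4, RFC3, POLA1, PRIM2, POLD1, POLE, RPA1, LIG1, E2F2, CHAF1A and CHAF1B.

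**Figure D1:**
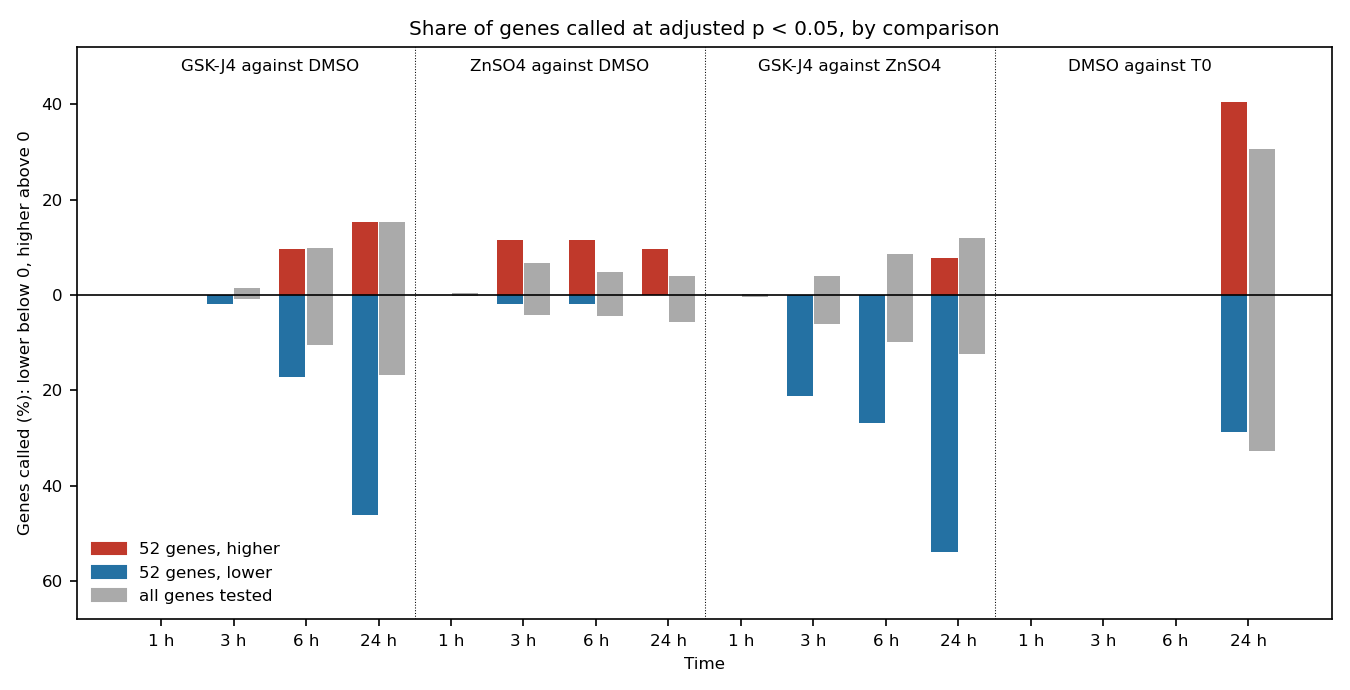
Share of the 52 replication genes (colour) and of the 14460 genes tested (grey) called in each comparison, in percent, with genes called higher above 0 and genes called lower below it; the horizontal axis is the time in each of 4 kinds of comparison. With GSK-J4 against DMSO at 24 h, 46.2% of the replication genes and 16.8% of all genes are lower.

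The count of genes that fell depends on the scaling. With library totals alone in place of TMM, all genes moved up by 0.092 at the median when GSK-J4 was set against DMSO at 24 h, and 11 replication genes were higher and 11 lower, 21.2% each. Of all genes, 22.5% were then higher and 10.6% lower, so that the share of replication genes that rose was near that of all genes and the share that fell above it, as with TMM. Of the genome-wide calls 68.1% were on the higher side, against 47.6%. Of the 32 genes called with TMM, 19 stayed called, 13 lost the call and none changed direction. At 6 h the same change gave 9 higher and 6 lower (17.3% and 11.5%, beside 12.4% and 7.72% of all genes; 61.6% of all calls higher, against 48.3%), and for ZnSO4 at 3 h 4 higher and 2 lower (7.69% and 3.85%, beside 5.24% and 6.55% of all genes; 44.5% of all calls higher, against 61.3%). The 15 genes called at 24 h under each alternative, the leaving out of each library included, were MCM2, MCM4, MCM7, GINS2, PCNA, RFC2, FEN1, RRM1, DUT, UNG and SLBP, which were lower, and GINS1, CCNE2, E2F1 and BRCA1, which were higher.

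**Figure D2:**
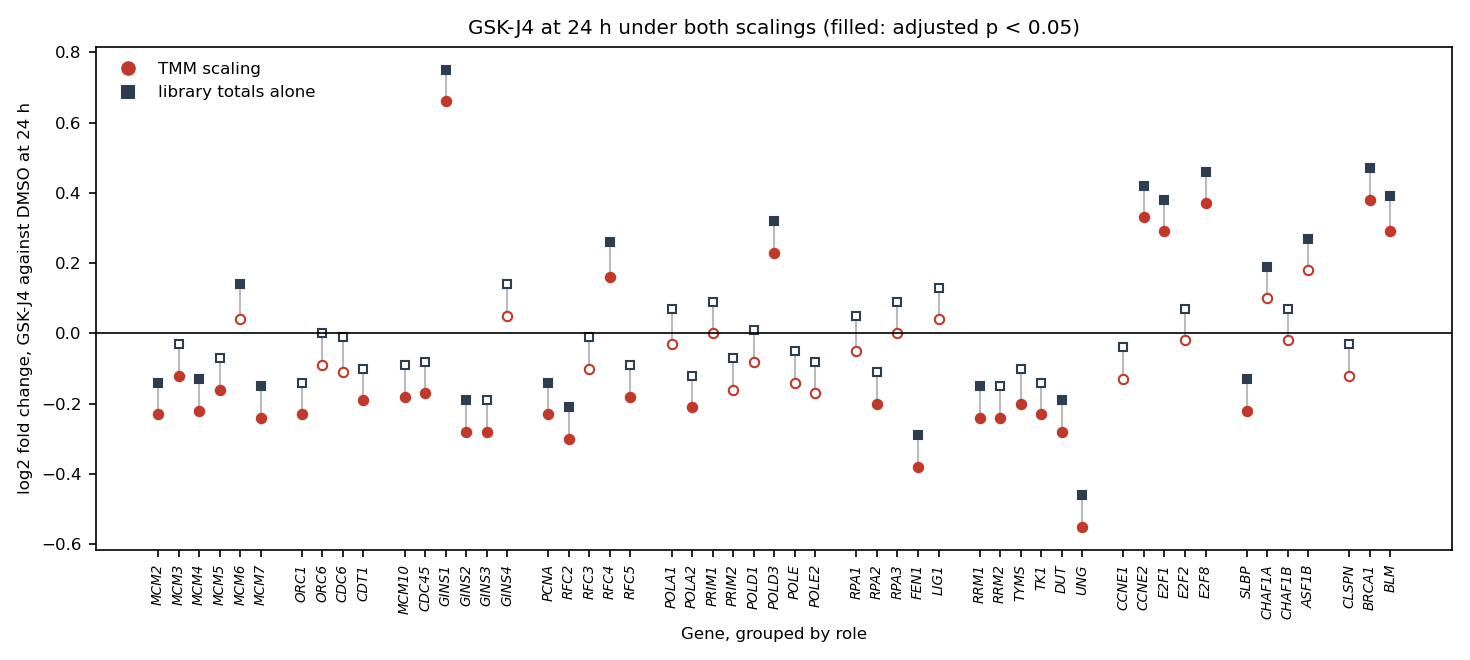
The log2 fold change of each gene with GSK-J4 against DMSO at 24 h, under TMM scaling (red circles) and under library totals alone (dark squares); filled symbols have an adjusted p under 0.05, and genes stand in order of role. Each square lies above its circle, with 24 genes filled below 0 under TMM and 11 under library totals.

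The summed level of the 52 genes, in CPM of the unscaled library total, was 11084 to 11382 in GSK-J4, 11618 to 11805 in DMSO and 11907 to 12331 in ZnSO4 at 24 h, so that the 3 groups did not overlap. At 6 h the ranges were 12606 to 13210 in GSK-J4, 12574 to 13151 in DMSO and 13492 to 13718 in ZnSO4, where the first 2 overlapped. The sum is weighted to the most abundant genes, such as RRM2 and MCM3.

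**Figure D3:**
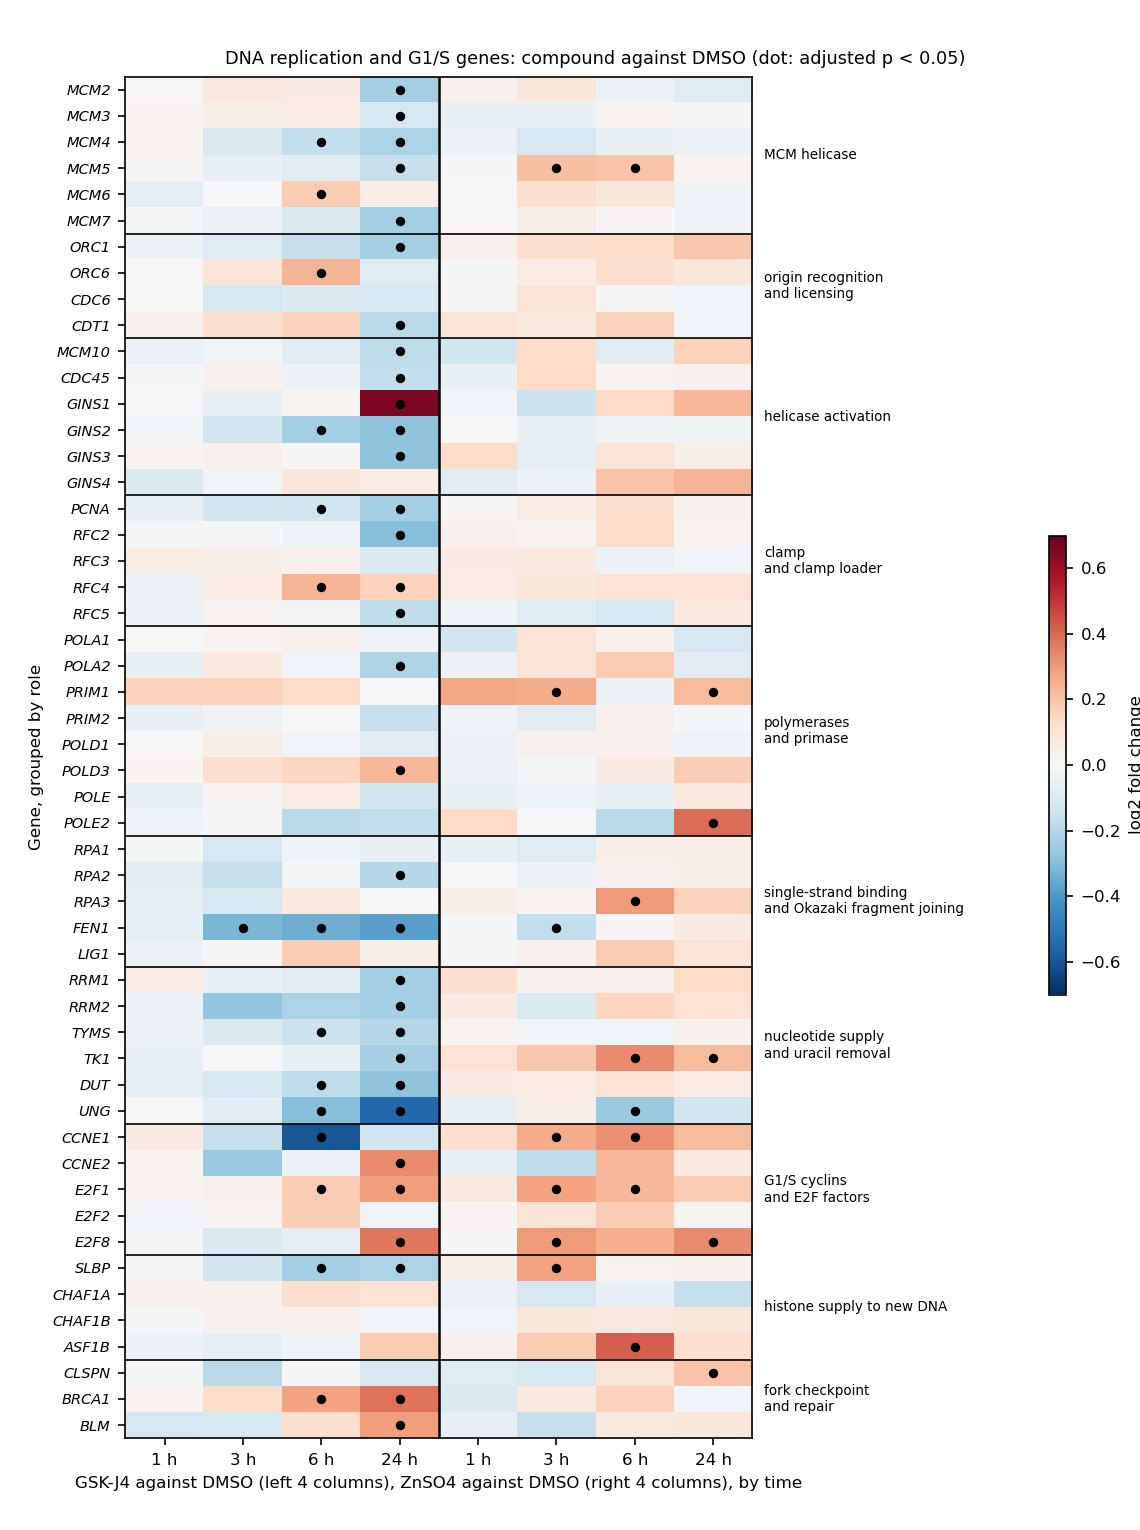
The log2 fold change against DMSO at the same time for each of the 52 genes (rows, grouped by role), for GSK-J4 in the 4 columns on the left and ZnSO4 in the 4 on the right; black dots mark an adjusted p under 0.05. Blue cells with dots fill most of the MCM helicase and nucleotide supply rows for GSK-J4 at 24 h, and no blue cell carries a dot for ZnSO4 at 24 h.

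The MCM helicase, the ring that unwinds DNA at the fork, was lower in 5 of its 6 subunits with GSK-J4 at 24 h. MCM7 stood at 770.4, 737 and 709.9 CPM against 867, 851 and 906 CPM in DMSO (log2FC -0.24 ± 0.05, adjusted p = 2.8e-05). The groups did not overlap, and the 3 ZnSO4 libraries, at 815, 888 and 859 CPM, lay above those of GSK-J4. At T0 MCM7 had 549.8, 522 and 528 CPM, below each of these libraries. MCM2, MCM3, MCM4 and MCM5 fell by 0.23, 0.12, 0.22 and 0.16 on the log2 scale, and MCM6 was not called (log2FC 0.04). Under library totals MCM3 and MCM5 lost their calls, as MCM3 did without the third GSK-J4 library, and MCM7 fell by 0.15. At 6 h MCM4 was lower (log2FC -0.17) and MCM6 higher (log2FC 0.18), the call of MCM6 being lost without the filter on low counts. With ZnSO4, MCM5 was higher at 3 h and 6 h (log2FC 0.21 and 0.20), the call at 6 h being lost without that filter, and none of the 6 was called at 24 h, when their log2FC lay between -0.09 and 0.02.

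Of the 4 genes that mark and license origins, ORC1 and CDT1 fell with GSK-J4 at 24 h. ORC1, the largest subunit of the origin recognition complex, had 125, 120.3 and 123 CPM against 143, 141 and 149.8 CPM in DMSO (log2FC -0.23 ± 0.07, adjusted p = 0.0085), and the groups did not overlap. The call ended under library totals (adjusted p = 0.12). CDT1, the loading factor that is destroyed once S phase begins, fell by 0.19 on the log2 scale, a call that ended under library totals and without the second DMSO or the third GSK-J4 library. CDC6 and ORC6 were not called at 24 h (log2FC -0.11 and -0.09). ORC6 was higher at 6 h (log2FC 0.24), a call that ended in 3 of the 6 omissions of a single library, and with ZnSO4 none of the 4 was called at 3, 6 or 24 h.

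The factors that activate the helicase held the gene with the largest rise. GINS1, a subunit of the GINS complex, had 36.5, 39.7 and 42.9 CPM in GSK-J4 at 24 h and 26.6, 25.3 and 23.2 CPM in DMSO (log2FC 0.66 ± 0.10, adjusted p = 8.7e-08). Each GSK-J4 library was above each DMSO library, yet both groups were far below their level at 6 h, which was 113, 122 and 103 CPM in GSK-J4 and 118, 111 and 107 CPM in DMSO. The other GINS subunits did not rise with it: GINS2 and GINS3 each fell by 0.28 on the log2 scale, and GINS4 was not called (log2FC 0.05). GINS2 was lower at 6 h as well (log2FC -0.24), a call that ended under library totals and in 2 of the 6 omissions of a single library. GINS3 had 53.6, 40.4 and 49.1 CPM against 58.3, 58.3 and 57.7 CPM (adjusted p = 0.012), a call that ended without the second GSK-J4 library (log2FC -0.18, adjusted p = 0.18) and under library totals (adjusted p = 0.1). MCM10, which helps to start the helicase, and CDC45, a part of the active helicase, fell by 0.18 and 0.17 on the log2 scale, and library totals ended both calls. So did 4 and 3 of the 6 omissions of a single library, and without the third GSK-J4 library the log2FC of CDC45 was -0.11. With ZnSO4 none of these 6 genes was called at any time.

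Among the clamp and its loader, PCNA fell with GSK-J4 at 24 h (log2FC -0.23), and at 6 h it was called (log2FC -0.14) but lost the call when any of 5 of the 6 libraries was left out. Its levels at 24 h were 944, 886 and 878 CPM in GSK-J4, 1047, 1052 and 1084 CPM in DMSO and 1085, 1091 and 1080.0 CPM in ZnSO4, the GSK-J4 libraries being the lowest of the 9. At T0 PCNA had 683, 622 and 625 CPM, below each of these libraries. The loader subunit RFC2 had 65.8, 70.1 and 60.4 CPM in GSK-J4 and 76.0, 83.2 and 82.0 CPM in DMSO at 24 h (log2FC -0.30 ± 0.08, adjusted p = 0.0021), with no overlap. RFC4, another loader subunit, went the other way, with 155, 156 and 156 CPM against 129, 133 and 133 CPM at 6 h (log2FC 0.24 ± 0.06, adjusted p = 0.0014). At 24 h RFC4 had 123, 136 and 122 CPM against 112, 112 and 116 CPM (log2FC 0.16 ± 0.06, adjusted p = 0.031). The groups did not overlap at either time, and the call at 24 h ended without the first or second DMSO library or the second GSK-J4 library (adjusted p = 0.12, 0.1 and 0.24). RFC5 fell by 0.18 on the log2 scale, a call lost under library totals, without the filter and in 5 of the 6 omissions of a single library, and RFC3 was not called.

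Of the 8 polymerase and primase genes, POLD3 rose and POLA2 fell with GSK-J4 at 24 h, and the other 6 had log2FC between -0.17 and 0. That is 1 of 8 in each direction, near the shares of all genes tested (15.2% higher and 16.8% lower). POLD3, a subunit of polymerase delta, had 62.5, 74.2 and 60.6 CPM against 56.6, 55.5 and 56.2 CPM (log2FC 0.23 ± 0.08, adjusted p = 0.022), without overlap. Its call ended when any 1 DMSO library or the second GSK-J4 library was left out, and without the latter the log2FC was 0.13. POLA2, a regulatory subunit of polymerase alpha, had 44.8, 48.2 and 41.3 CPM against 54.2, 50.5 and 50.1 CPM (log2FC -0.21 ± 0.08, adjusted p = 0.045). That call ended with DESeq2 (adjusted p = 0.051), under library totals (adjusted p = 0.3) and without the first DMSO library or without the first or the third GSK-J4 library. With ZnSO4 PRIM1, the catalytic primase subunit, was higher at 3 h and 24 h (log2FC 0.26 and 0.22). The call at 3 h ended without the second DMSO or the third ZnSO4 library, and that at 24 h without the filter on low counts and in 5 of the 6 omissions of a single library (adjusted p up to 0.28). POLE2, a subunit of polymerase epsilon, had 17, 20.6 and 24.6 CPM in ZnSO4 and 13.8, 15.6 and 18.3 CPM in DMSO at 24 h (log2FC 0.39 ± 0.13, adjusted p = 0.05, just under the threshold before rounding), and here the libraries overlapped. DESeq2 did not call POLE2 (adjusted p = 0.054), and the call also ended without the filter, in the fit of only the groups compared and in 4 of the 6 omissions of a single library; without the third ZnSO4 library the log2FC was 0.26 with an adjusted p of 0.34.

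FEN1, the flap endonuclease that trims Okazaki fragments, was the earliest of the 52 genes to be called with GSK-J4. At 3 h it had 156, 158 and 159 CPM in GSK-J4 and 202, 199 and 187 CPM in DMSO (log2FC -0.32 ± 0.05, adjusted p = 2.2e-05). At 6 h the levels were 159.8, 148 and 151 CPM against 199, 186 and 198 CPM (log2FC -0.34 ± 0.06, adjusted p = 1.5e-06). At 24 h they were 68.3, 66.4 and 70.5 CPM against 89.5, 89.5 and 88.7 CPM (log2FC -0.38 ± 0.06, adjusted p = 2.7e-06). The groups were apart at the 3 times, and each call held under every alternative tried. With ZnSO4 FEN1 was lower at 3 h, at 177, 182 and 164 CPM (log2FC -0.17 ± 0.05, adjusted p = 0.024), and not called at 6 h or 24 h (log2FC 0.01 and 0.06). The ZnSO4 call ended without the first or second DMSO library or the third ZnSO4 library.

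The 3 subunits of RPA, which coats single-stranded DNA, and LIG1, the ligase that seals Okazaki fragments, gave 2 calls against DMSO. RPA2 fell by 0.20 on the log2 scale with GSK-J4 at 24 h, a call that library totals ended, and RPA3 rose with ZnSO4 at 6 h (log2FC 0.30). RPA3 then had 107, 106 and 98.7 CPM in ZnSO4 and 81.4, 89.0 and 82.1 CPM in DMSO, without overlap. RPA1 and LIG1 were not called with either compound.

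**Figure D4:**
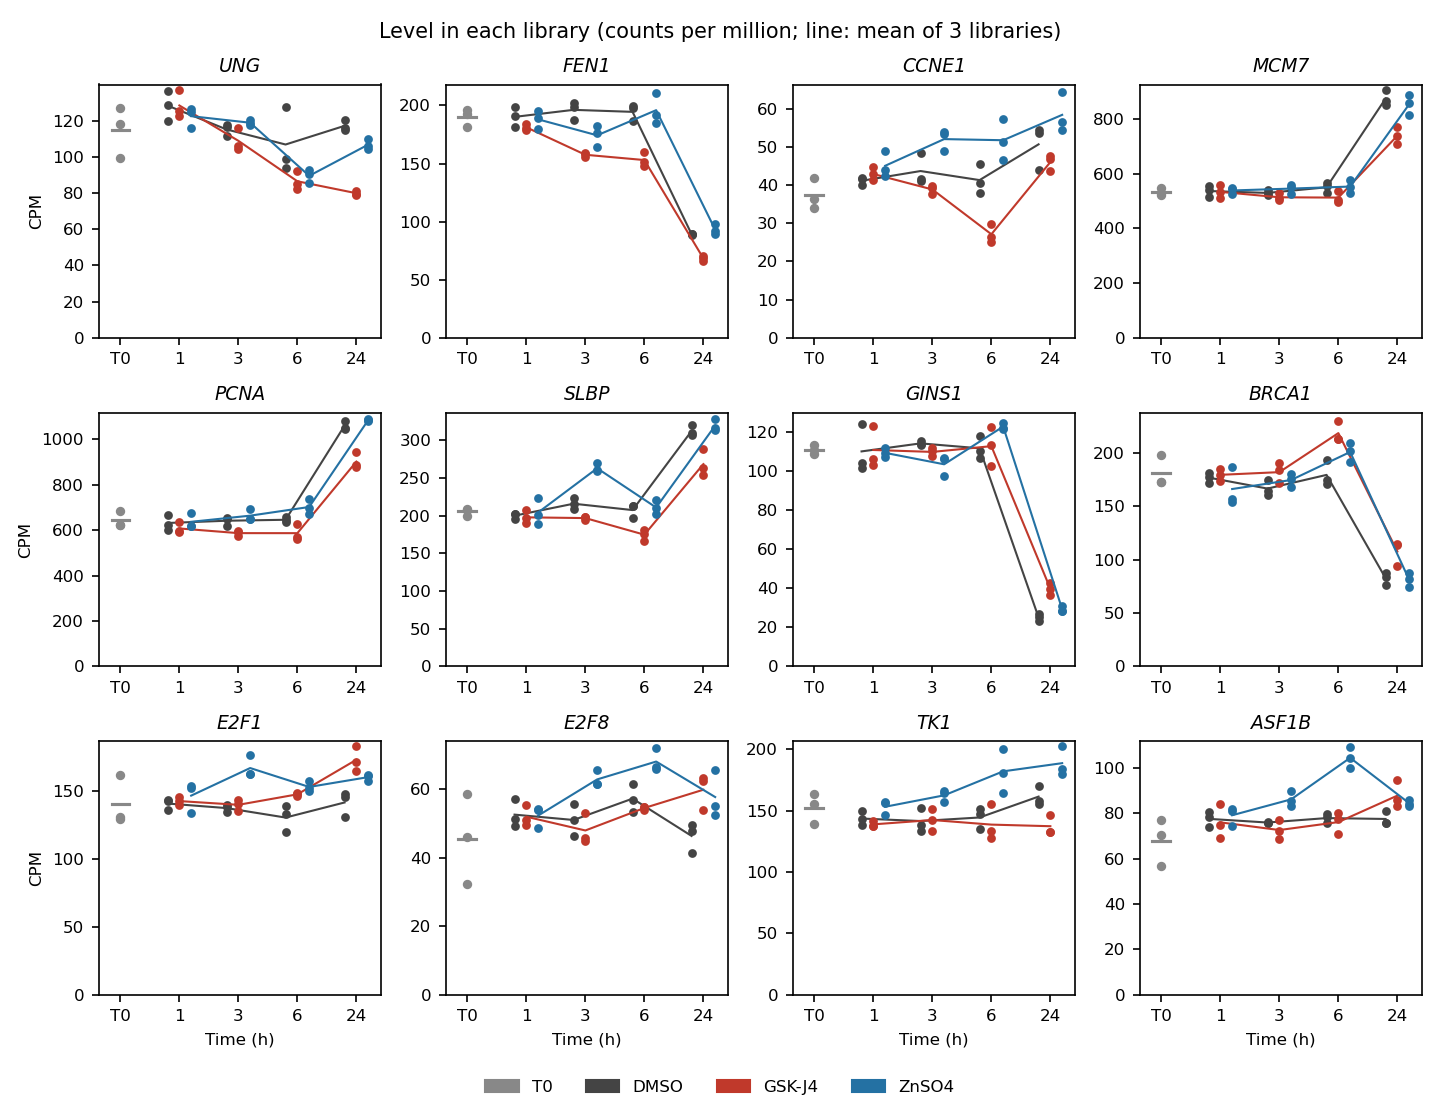
Level of 12 of the genes in each of the 39 libraries, in CPM on linear axes that start at 0, against time (T0, then 1, 3, 6 and 24 h at equal spacing); points are libraries and lines join the means of 3 libraries for DMSO (dark grey), GSK-J4 (red) and ZnSO4 (blue). FEN1 separates at 3 h, CCNE1 dips at 6 h with GSK-J4, and GINS1 and BRCA1 fall in each treatment by 24 h and end higher in GSK-J4 than in DMSO.

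Nucleotide supply was the role in which each gene fell with GSK-J4 at 24 h, 6 of 6. Uracil-DNA glycosylase (UNG), which removes uracil built into DNA, had 81.2, 79.7 and 78.7 CPM in GSK-J4 and 121, 116 and 115 CPM in DMSO (log2FC -0.55 ± 0.08, adjusted p = 3.4e-08). The DMSO libraries were each above the GSK-J4 libraries, and this was the largest fall of the 52 genes at 24 h with GSK-J4. DUT, the dUTPase that keeps uracil out of the nucleotide pool, had 527, 528 and 501 CPM against 615, 629 and 651 CPM (log2FC -0.28), again without overlap. RRM1 and RRM2, the subunits of ribonucleotide reductase, each fell by 0.24 on the log2 scale, thymidylate synthase (TYMS) by 0.20 and thymidine kinase (TK1) by 0.23. The calls of RRM2, TYMS and TK1 ended under library totals, and that of RRM2 also with DESeq2 and without any of 3 of the 6 libraries. UNG, DUT and TYMS, whose promoters are among those printed, were lower already at 6 h (log2FC -0.30, -0.18 and -0.15), where the call of UNG ended without the third DMSO library (log2FC -0.16, adjusted p = 0.18) and that of TYMS without 4 of the 6 libraries and under library totals.

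With ZnSO4, TK1 rose at 6 h and 24 h. At 6 h it had 181, 200.4 and 165 CPM in ZnSO4 and 147, 151 and 135 CPM in DMSO (log2FC 0.33 ± 0.07, adjusted p = 0.00042). At 24 h it had 184, 179.8 and 203 CPM against 156, 158 and 171 CPM (log2FC 0.22 ± 0.07, adjusted p = 0.022). Neither pair of groups overlapped, but the call at 24 h ended without the first or second DMSO library or the third ZnSO4 library. UNG was lower with ZnSO4 at 6 h, at 85.3, 92.9 and 90.3 CPM against 99.1, 93.8 and 128 CPM (log2FC -0.26 ± 0.08, adjusted p = 0.023). That value rests on the third DMSO library, the highest, and without it the log2FC was -0.11 with an adjusted p of 0.46; leaving out the first or the third ZnSO4 library also ended the call.

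Cyclin E and the E2F factors were the role with most rises and no fall at 24 h with GSK-J4: CCNE2, E2F1 and E2F8 rose, and CCNE1 and E2F2 were not called. E2F8, a repressor of the E2F family, had 62.2, 54.0 and 63.2 CPM against 49.6, 41.5 and 47.9 CPM (log2FC 0.37 ± 0.10, adjusted p = 0.0034). The lowest GSK-J4 library was above the highest DMSO library, and without the second DMSO library the adjusted p was 0.052. E2F1, an activator, had 171, 183 and 164 CPM against 148, 131 and 146 CPM (log2FC 0.29) and was called at 6 h as well (log2FC 0.18), where 5 of the 6 libraries, left out 1 at a time, ended the call. CCNE2 had 145, 128 and 129.8 CPM against 107, 113 and 99.4 CPM at 24 h (log2FC 0.33). For E2F1 and CCNE2 too the groups lay apart at 24 h.

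CCNE1 showed the largest fall of any of the 52 genes against DMSO, and at 6 h. It had 29.9, 25.1 and 26.3 CPM in GSK-J4 and 37.8, 40.6 and 45.4 CPM in DMSO (log2FC -0.60 ± 0.10, adjusted p = 5.5e-06). At 24 h the values were 46.9, 43.6 and 47.5 CPM and 53.6, 43.8 and 54.5 CPM, which overlapped and were not called (log2FC -0.13). With ZnSO4, CCNE1 was higher at 3 h and 6 h (log2FC 0.26 and 0.32), with 46.5, 57.3 and 51.3 CPM at 6 h. The first of these calls ended under RLE scaling, library totals and DESeq2 and without the filter. It also ended without the first or second DMSO library or the first or second ZnSO4 library. The second call ended when any of 4 of the 6 libraries was left out.

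E2F1 and E2F8 rose with ZnSO4 as well. At 3 h E2F1 had 176, 162 and 162 CPM in ZnSO4 and 138, 134 and 139.9 CPM in DMSO (log2FC 0.28 ± 0.06, adjusted p = 0.0011), a call that held under every alternative tried. E2F8 had 65.5, 61.5 and 61.4 CPM against 55.6, 46.3 and 51.0 CPM at 3 h (log2FC 0.30 ± 0.10, adjusted p = 0.045). At 24 h E2F8 had 55.0, 65.5 and 52.4 CPM against 49.6, 41.5 and 47.9 CPM (log2FC 0.33 ± 0.11, adjusted p = 0.04). The groups did not overlap in these comparisons. DESeq2 did not call E2F8 at 3 h (adjusted p = 0.067), and leaving out 5 of the 6 libraries, 1 at a time, ended that call. At 24 h 4 of the 6 did so, and without the second ZnSO4 library the log2FC was 0.22 with an adjusted p of 0.37. E2F1 was called with ZnSO4 at 6 h too (log2FC 0.23, a call lost without the second DMSO or the first ZnSO4 library and without the filter) and not at 24 h (log2FC 0.18).

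Of the genes that bring histones to new DNA, SLBP fell with GSK-J4 and ASF1B rose with ZnSO4. SLBP, which binds the stem-loop of histone mRNAs, had 288, 264 and 254 CPM in GSK-J4 and 309.6, 307 and 321 CPM in DMSO at 24 h (log2FC -0.22 ± 0.05, adjusted p = 0.00079), without overlap, and was lower at 6 h (log2FC -0.24). Under library totals the log2FC at 24 h was -0.13. At T0 SLBP had 210, 208 and 199.5 CPM, below each library of both groups at 24 h. In ZnSO4 at 3 h SLBP stood at 260.5, 269 and 259 CPM against 223, 209 and 215 CPM (log2FC 0.28). ASF1B, a histone H3-H4 chaperone, had 104, 109 and 99.8 CPM in ZnSO4 and 78.4, 75.6 and 79.6 CPM in DMSO at 6 h (log2FC 0.42 ± 0.07, adjusted p = 2.8e-05). Each ZnSO4 library was above each DMSO library, and this was the largest rise of the 52 genes with ZnSO4. ASF1B was not called with ZnSO4 at 24 h. With GSK-J4 at 24 h it just missed the threshold (log2FC 0.18, adjusted p = 0.05). Under library totals it was called higher there (log2FC 0.27, adjusted p = 0.0022). CHAF1A and CHAF1B, subunits of chromatin assembly factor 1, were not called against DMSO.

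BRCA1 and BLM, which act in homologous recombination and on stalled forks, rose with GSK-J4. BRCA1 had 213, 213 and 229.8 CPM in GSK-J4 and 193, 175 and 171 CPM in DMSO at 6 h (log2FC 0.28 ± 0.07, adjusted p = 0.00086). At 24 h it had 93.7, 114 and 115 CPM against 87.6, 83.7 and 76.7 CPM (log2FC 0.38 ± 0.07, adjusted p = 4.9e-05). The groups were apart at both times and the calls held under every alternative tried. BLM, a helicase, had 36.7, 38.8 and 37.6 CPM against 33.3, 28.6 and 30.4 CPM at 24 h (log2FC 0.29), a call that was lost without the filter on low counts and in 4 of the 6 omissions of a single library, the adjusted p reaching 0.12 without the second DMSO library. CLSPN, the adaptor that passes the replication checkpoint signal to the checkpoint kinase, was not called with GSK-J4 and rose with ZnSO4 at 24 h, with 204, 219 and 187 CPM against 182, 179.8 and 170.2 CPM (log2FC 0.20 ± 0.07, adjusted p = 0.049). The groups did not overlap, and leaving out 5 of the 6 libraries, 1 at a time, ended the call.

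The compounds were then compared with each other at the same time, which tests the difference between them. No gene was called at 1 h (background 0.138% higher in GSK-J4 and 0.526% lower), with none higher and 2 lower at an unadjusted p under 0.05 and none by DESeq2. At 3 h none was higher and 11 were lower in GSK-J4 (background 3.99% and 6.12%; DESeq2 called 9 lower and none higher, and 2 were higher at an unadjusted p under 0.05). At 6 h none was higher and 14 were lower (background 8.53% and 9.88%; DESeq2 called 14 lower and none higher, and 4 were higher at an unadjusted p under 0.05). At 24 h 4 were higher and 28 lower (background 12% and 12.5%), with a median log2FC of -0.18. The largest difference at 6 h was in CCNE1 (log2FC -0.92 ± 0.10, adjusted p = 4.7e-11), and at 24 h in POLE2 (log2FC -0.56 ± 0.14, adjusted p = 0.0019). Chosen after their values were seen, the 4 genes higher in GSK-J4 than in ZnSO4 at 24 h were GINS1, CCNE2, CHAF1A and BRCA1, with log2FC of 0.44, 0.26, 0.26 and 0.40, of which the call of CCNE2 ended without the first ZnSO4 or the first GSK-J4 library. E2F1 was called against DMSO with GSK-J4 at 6 and 24 h and with ZnSO4 at 3 and 6 h. Between the compounds it was lower in GSK-J4 at 3 h, under every alternative tried. It was not called between them at 24 h (log2FC 0.11, SE 0.07). Under library totals 3 genes were higher and 6 lower at 3 h (5.77% and 11.5%, beside 8.78% and 4.41% of all genes). The counts at 6 h were 3 and 12 (5.77% and 23.1%, beside 10.6% and 8.17% of all genes). Those at 24 h were 7 and 18 (13.5% and 34.6%, beside 16.9% and 8.5% of all genes). The share of genome-wide calls on the higher side went from 39.5% to 66.6%, from 46.3% to 56.4% and from 48.9% to 66.6% at these times.

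The largest changes of these genes among the comparisons made were those between T0 and DMSO at 24 h. DMSO was compared with T0 at each time, and in this comparison time and DMSO cannot be told apart. The T0 replicates differed most (chi-squared per gene 3.149 to 7.326), while the fit shares its estimate of the spread over all 39 libraries. Standard errors and p-values against T0 may therefore be too small. Before 24 h no gene was called: the background was 0.0277% higher and 0.00692% lower at 1 h, 0.0553% and 0.0415% at 3 h, and 0.00692% and 0.00692% at 6 h. At an unadjusted p under 0.05 there were 4 higher and 1 lower at 1 h, 9 and 1 at 3 h, and 15 and 2 at 6 h, and DESeq2 called 0, 2 and 1 genes, those called being higher (it gave no adjusted p for 9, 5 and 14 of the 52). These early comparisons rest on the T0 libraries, since without the first of them 1, 8 and 10 genes were called at 1, 3 and 6 h. The share of all genes called in those fits was not taken, so that these counts have no background. At 24 h 21 genes were higher and 15 lower (background 30.5% and 32.7%), that is, 40.4% and 28.8% of the 52, the latter near the share of all genes. With library totals, under which the median of all genes dropped by 0.222, 15 were higher and 26 lower (28.8% and 50%, beside 19.1% and 45.1% of all genes), and the share of genome-wide calls on the higher side fell from 48.2% to 29.8%.

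**Figure D5:**
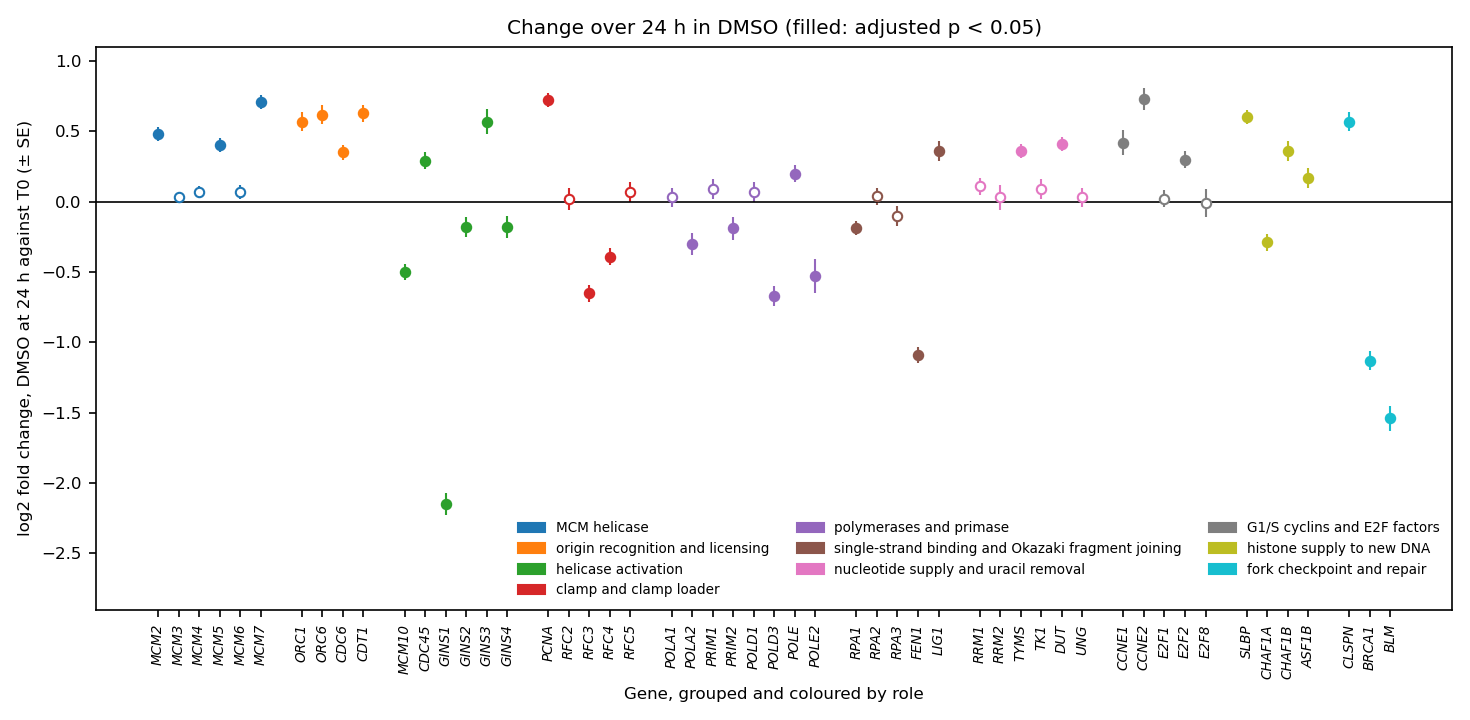
The log2 fold change from T0 to 24 h in DMSO for each of the 52 genes, with its standard error, grouped and coloured by role; filled circles have an adjusted p under 0.05 and open circles do not. GINS1, BLM, BRCA1 and FEN1 lie below -1, and the 4 origin and licensing genes lie between 0.35 and 0.63.

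The calls by 24 h in DMSO differed between roles, beside 30.5% of all genes called higher and 32.7% lower. The 4 origin and licensing genes rose (log2FC 0.35 to 0.63), with a direction that held under library totals. Of the 6 helicase activation genes 4 fell and 2 rose, and of the 8 polymerase and primase genes 4 fell and 1 rose. Among these falls were GINS2 and GINS4, whose limits are given below, and PRIM2. The call of PRIM2 (log2FC -0.19, adjusted p = 0.049) ended under RLE scaling, with DESeq2 and without the filter. It also ended in the fit of only the groups compared and in 4 of the 6 omissions of a single library. The role counts were not tested against the background. CCNE2 had 107, 113 and 99.4 CPM at 24 h and 74.3, 64.9 and 50.9 CPM at T0 (log2FC 0.73 ± 0.08, adjusted p = 9.3e-12). PCNA had 1047, 1052 and 1084 CPM and 683, 622 and 625 CPM (log2FC 0.72 ± 0.05, adjusted p = 1.4e-20). MCM7 had 867, 851 and 906 CPM and 549.8, 522 and 528 CPM (log2FC 0.71 ± 0.05, adjusted p = 5.1e-21). These were the largest rises, and in each the libraries at 24 h were all above those at T0.

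The falls were larger. GINS1 went from 113, 111 and 109 CPM at T0 to 26.6, 25.3 and 23.2 CPM at 24 h (log2FC -2.15 ± 0.08, adjusted p = 8.8e-33). BLM went from 98.3, 82.1 and 87.9 CPM to 33.3, 28.6 and 30.4 CPM (log2FC -1.54 ± 0.09, adjusted p = 3.3e-24). BRCA1 went from 173, 173 and 198 CPM to 87.6, 83.7 and 76.7 CPM (log2FC -1.13 ± 0.07, adjusted p = 4.9e-22). With FEN1 (log2FC -1.09), these were the 4 of the 52 genes that changed at least 2-fold, a size that none reached against DMSO with either compound. The GINS complex was again divided, since GINS3 rose (log2FC 0.57) while GINS2 and GINS4 fell by 0.18 each (calls that ended in 2 and 6 of the 6 omissions of a single library, GINS2 reaching -0.12 without the third T0 library), and so was the clamp loader, where RFC3 and RFC4 fell by 0.65 and 0.39 and RFC2 and RFC5 were not called. MCM3, MCM4 and MCM6 were not called with TMM (log2FC 0.03, 0.07 and 0.07) and were below T0 under library totals (log2FC -0.19, -0.15 and -0.15). The comparisons of GSK-J4 with DMSO at 24 h use the same DMSO libraries as this one. For GINS1, BLM and BRCA1 the log2FC with GSK-J4 was 0.66, 0.29 and 0.38, and for FEN1 it was -0.38, so these genes did not share a direction.

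Whether a compound's effect changed between 6 h and 24 h was tested as a difference of differences. With GSK-J4 it did for 6 genes, 3 more positive and 3 more negative at 24 h (background 2.72% and 3.04%). Under library totals these counts were 4 and 2 (7.69% and 3.85%, beside 3.8% and 2.02% of all genes), with 65.3% of genome-wide calls positive against 47.2%. For GINS1 the log2FC was 0.02 at 6 h and 0.66 at 24 h (difference 0.64 ± 0.12, adjusted p = 9.8e-05). For CCNE1 it was -0.60 and -0.13 (difference 0.46 ± 0.14, adjusted p = 0.027). In the other direction, CDT1 had 115, 107 and 110.2 CPM in GSK-J4 and 106, 92.8 and 98.7 CPM in DMSO at 6 h, and 147, 137 and 133 CPM and 152, 166 and 160.1 CPM at 24 h (difference -0.35 ± 0.09, adjusted p = 0.0078). CDT1 was not called at 6 h (log2FC 0.16) and was lower with GSK-J4 at 24 h. ORC6 had 116, 122 and 104 CPM against 105, 97.1 and 87.0 CPM at 6 h and 137, 114 and 123 CPM against 134, 135 and 130.2 CPM at 24 h, where the libraries overlapped (difference -0.33 ± 0.11, adjusted p = 0.044). The calls of CCNE1 and ORC6 ended under 6 and 9 of the 12 omissions of a single library, the adjusted p then reaching 0.13 and 0.17. With ZnSO4 no gene was called (background 0.111% and 0.297%), 3 being more positive and 3 more negative at an unadjusted p under 0.05, and DESeq2 called none.

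A further list of 64 replication genes, of which UHRF1 was not matched, left 63 genes. Of these, 7 were higher and 6 lower with GSK-J4 at 6 h, and 5 higher and 16 lower at 24 h. At 24 h the largest fall was in CCNA2, the cyclin of S phase and G2 (log2FC -0.60 ± 0.08, adjusted p = 1.3e-08), and the largest rise in RBL2, a member of the RB family (log2FC 0.35 ± 0.09, adjusted p = 0.0026). These are 11.1% and 9.52% at 6 h, near the background of 9.83% and 10.5%, and 7.94% and 25.4% at 24 h, beside 15.2% and 16.8%. With ZnSO4 4 were higher and 3 lower at 3 h (6.35% and 4.76%, beside 6.59% and 4.16% of all genes), 2 and 1 at 6 h (3.17% and 1.59%, beside 4.81% and 4.51%), and 4 and 3 at 24 h (6.35% and 4.76%, beside 3.98% and 5.58%). At 24 h the largest rise was in E2F7, the partner of E2F8 among the repressor E2Fs (log2FC 0.49 ± 0.13, adjusted p = 0.0067), and the largest fall in ORC5, an origin recognition subunit (log2FC -0.45 ± 0.14, adjusted p = 0.031). In DMSO at 24 h 25 were higher and 26 lower than at T0, where 30.5% and 32.7% of all genes were.

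Some counts may mix in reads of other genes. The sources do not say whether the counting used strand, and in GENCODE 29 exons of 21 of the 52 genes overlap exons of a gene on the opposite strand, among them TYMS with ENOSF1 (967 bases), CCNE2 with INTS8 (1629 bases), MCM7 with AP4M1, and FEN1 with TMEM258 (166 bases). Reads of such partners cannot be told apart without strand. Exons of 8 genes overlap another gene on the same strand, with 2012 bases in POLA2 and 1077 in RRM2. Pseudogenes that carry the gene's name exist for 9 of the 52 genes, with 8 for DUT, 3 each for PCNA, RPA2 and RRM2, and 2 each for TYMS and UNG, and their share in these counts was not tested.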

How the data were processed

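RNA of JJN3 cells was extracted with Trizol and made into libraries with the NEBNext Ultra RNA kit, per the labels' protocols. Per the submitters' processing notes, alignment was by HISAT2 2.1.0 and the build hg19. How reads were counted, with which annotation and strand setting, is not given in the sources used here. Values are raw counts per Ensembl gene as the authors deposited them; symbols came from a name table (51996 of 57773 identifiers). The sample labels list 1 h groups that the treatment protocol does not mention; the sample labels were followed.

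The 39 libraries were fitted together with edgeR 4.0.16 in R 4.3.3 (quasi-likelihood, TMM scaling, filterByExpr at a minimum of 10 counts, a coefficient for each group, 26 residual degrees of freedom). F-tests gave Benjamini-Hochberg adjusted p-values within a comparison over 14460 genes, called under 0.05; the standard error is log2FC divided by the root of F. The biological coefficient of variation was 4.8%, and library totals of 4347745 to 10695671 counts limit low genes. No replicate pair looked like 1 library deposited in duplicate (chi-squared per gene 1.205 to 7.326).

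The members and lists were chosen with earlier results of these data known. In each role, the called genes with the largest rise and fall at 24 h per compound are given by library, as are the largest 2 per direction at 3 and 6 h and between times, and the largest 3 against T0; genes named beyond these were chosen for their role. The alternatives tried were scaling by RLE or by library totals, testing without a filter, fitting the compared groups alone, DESeq2 1.42.0 and leaving out each library. Promoter windows came from RefSeq (GRCh38.p14).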

Additional observations from a re-analysis of the deposited data

Results flagged for a closer look

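For 6 of the 52 genes the effect of GSK-J4 against DMSO differed between 6 h and 24 h in the test of the difference itself. The difference on the log2 scale was 0.64 for GINS1, 0.46 for CCNE1 and 0.37 for CCNE2, which stood higher against DMSO at 24 h than at 6 h, and -0.35 for CDT1, -0.33 for ORC6 and -0.30 for MCM2, which stood lower. MCM2 had 413, 406 and 430.1 CPM in GSK-J4 and 407, 388 and 399.6 CPM in DMSO at 6 h, and 466, 462 and 451 CPM and 545, 531 and 546 CPM at 24 h. CCNE2 had log2FC of -0.04 at 6 h and 0.33 at 24 h. The differences of CDT1, GINS1 and MCM2 stayed called under every alternative tried, and those of CCNE1, CCNE2 and ORC6 did not.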

How the results depend on the processing

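No paired analysis was possible because the labels carry no replicate numbers, and numbers given in order of deposition pair nothing. RLE size factors left the counts of called genes within 1.5 times in the comparisons tested. Without the filter on low counts, 2 genes instead of 1 were called for GSK-J4 against DMSO at 3 h, 4 instead of 7 for ZnSO4 against DMSO at 6 h, 1 instead of 5 at 24 h, 6 instead of 11 for GSK-J4 against ZnSO4 at 3 h, and 2 and 1 instead of 0 for DMSO against T0 at 3 h and 6 h. Without that filter the calls of MCM6, PCNA, TYMS and E2F1 with GSK-J4 at 6 h, of MCM10, RFC4, RFC5, POLA2, POLD3 and BLM at 24 h, of FEN1 and CCNE1 with ZnSO4 at 3 h, of MCM5, CCNE1 and E2F1 at 6 h, and of POLE2, TK1, PRIM1 and CLSPN at 24 h ended. Fitting only the groups compared gave 12 genes for GSK-J4 against DMSO at 3 h and 11 for ZnSO4 against DMSO at 3 h. Library totals gave 8 genes for ZnSO4 against DMSO at 24 h (15.4% higher and 0% lower, beside 4.67% and 4.45% of all genes). DESeq2 called 2 and 1 genes for DMSO against T0 at 3 h and 6 h. Leaving out 1 library at a time gave 1 to 2 genes for GSK-J4 against DMSO at 3 h, 3 to 6 genes for ZnSO4 against DMSO at 3 h, 0 to 3 genes for ZnSO4 against DMSO at 24 h, 5 to 10 genes for GSK-J4 against ZnSO4 at 3 h, 9 to 14 genes for GSK-J4 against ZnSO4 at 6 h, 0 to 1 genes for DMSO against T0 at 1 h, 0 to 8 genes for DMSO against T0 at 3 h, 0 to 10 genes for DMSO against T0 at 6 h and 3 to 6 genes for GSK-J4 between 6 h and 24 h. Without the second GSK-J4 library at 6 h or the third at 24 h, 3 genes instead of 6 differed between times; the count at 6 h for GSK-J4 against ZnSO4 was lowest without the second GSK-J4 library, that at 3 h without the second ZnSO4 library, and that for ZnSO4 against DMSO at 3 h without the second DMSO library. For DMSO against T0 the highest counts came without the first T0 library; 1 gene was called at 3 h without the second T0 library and 2 at 6 h without the third DMSO library. For the fits without the filter, of the compared groups alone, with DESeq2 or without a library, the share of all genes called was not taken. The cause of these changes was not tested. Of the 52 genes no called one changed direction under an alternative against DMSO, and of those called in DMSO at 24 h against T0, POLE and ASF1B did under library totals (log2FC -0.02 and -0.05). Under every alternative tried, 7 of the 14 genes called with GSK-J4 against DMSO at 6 h and 15 of the 32 at 24 h stayed called, as did 3 of 7, 3 of 7 and 0 of 5 with ZnSO4 at 3, 6 and 24 h, 5 of 11, 9 of 14 and 19 of 32 between the compounds at those times, and 26 of 36 in DMSO at 24 h against T0.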
